A study of Mus musculus with 8 samples.

Results

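In cultures of mouse colon epithelium grown as organoids, 195 cells combined transcripts of Areg, the EGF receptor ligand amphiregulin, and of Cdkn1a, the cyclin-dependent kinase inhibitor p21, with little or no Mki67. They were taken by a rule on raw UMIs, the unique molecular identifiers that count captured transcripts. Cells needed at least 500 genes, at least 5000 UMIs and at most 10% of UMIs from mitochondrial genes. Members then had at least 2 UMIs of Areg, at least 5 of Cdkn1a and at most 1 of Mki67, a marker of cycling cells. Of 4694 organoid cells in replicate 1 and 4284 in replicate 2 that passed the depth limits, 106 and 89 were members. The 6 epithelial libraries of the series held 28528 cells used here, after the same limits and, in assembloids and tissue, a filter that kept cells with more UMIs of epithelial than of fibroblast and immune genes. The comparison cells, 533 and 767, passed the same limits with no UMI of Areg and at most 1 of Mki67. The members were thus chosen by their UMIs of Areg, Cdkn1a and Mki67, so the values of these genes below are a description, and they were left out of every test.

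The study set colon epithelium grown alone or with stroma beside that of the tissue, and sequenced sorted live cells with the 10x Genomics 3′ assay in 2 libraries per group. Organoids held epithelium alone in Matrigel, in full medium with EGF, an inhibitor of TGF-beta receptors, surrogate Wnt, CHIR-99021, R-spondin 1 and noggin. Assembloids combined colon epithelium with colon stroma in the medium without the Wnt activators and noggin, and tissue epithelium came from crypts of the colon. All were from C57BL/6 mice, which the methods give as male young adults; the labels name no genetic change. The methods call the 2 libraries of a group biological replicates. They do not say of the epithelial ones whether these were separate animals or cultures. With the library as a block, the p-values measure how differences between sets of cells varied across these libraries. A shift that all cells of a library share is taken out.

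EGF family ligands are made as membrane-bound precursors, are shed by proteases and bind EGF receptors on the same or on neighbouring cells. Amphiregulin is a ligand of this family that intestinal epithelium makes at low levels at rest and at higher levels after injury. Cdkn1a is a direct target of the transcription factor p53, which responds to DNA damage and other stress, and p21 holds cells back from entering S phase. In colon organoids, added Wnt ligands keep most of the epithelium in a stem-like, dividing state.

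Promoters from RefSeq on GRCm38.p6 are shown for both genes of the rule and for 3 genes that were higher in the members, because they hold letters bound by factors of the stress and growth factor responses. Each run is the 250 bases before the start, 5′ to 3′ on the strand of the gene. Capitals mark a CRE (TGACGTCA) in Areg, the p53 consensus decamer in Cdkn1a and in Ccng1, and AP-1 sites (TGANTCA) in Il1rn and F3. Both strands were searched, and none of these motifs contains another. The entries are those of chr5:91139349-91139598 (plus strand), chr17:29090729-29090978 (plus, 1 of 2 Cdkn1a starts), chr11:40755287-40755536 (minus), chr2:24336610-24336859 (plus, 1 of 3 Il1rn starts) and chr3:121723287-121723536 (plus).
Areg: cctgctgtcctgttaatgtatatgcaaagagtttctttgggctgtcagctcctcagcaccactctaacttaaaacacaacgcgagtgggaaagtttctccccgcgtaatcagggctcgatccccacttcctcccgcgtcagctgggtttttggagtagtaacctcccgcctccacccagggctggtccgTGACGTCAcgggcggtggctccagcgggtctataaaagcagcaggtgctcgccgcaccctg
Cdkn1a: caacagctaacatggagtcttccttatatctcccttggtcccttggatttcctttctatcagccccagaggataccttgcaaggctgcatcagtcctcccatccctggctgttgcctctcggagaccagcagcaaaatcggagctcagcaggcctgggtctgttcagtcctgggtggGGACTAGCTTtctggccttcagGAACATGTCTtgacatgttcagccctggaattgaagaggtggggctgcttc
Ccng1: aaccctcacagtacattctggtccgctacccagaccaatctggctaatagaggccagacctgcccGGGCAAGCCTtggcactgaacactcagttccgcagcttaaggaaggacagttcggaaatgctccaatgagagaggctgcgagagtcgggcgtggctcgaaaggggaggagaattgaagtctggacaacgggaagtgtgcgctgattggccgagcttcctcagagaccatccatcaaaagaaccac
Il1rn: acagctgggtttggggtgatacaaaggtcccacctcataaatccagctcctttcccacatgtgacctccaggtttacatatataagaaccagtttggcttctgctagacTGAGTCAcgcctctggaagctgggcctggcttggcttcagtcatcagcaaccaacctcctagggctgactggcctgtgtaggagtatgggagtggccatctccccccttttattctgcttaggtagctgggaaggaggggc
F3: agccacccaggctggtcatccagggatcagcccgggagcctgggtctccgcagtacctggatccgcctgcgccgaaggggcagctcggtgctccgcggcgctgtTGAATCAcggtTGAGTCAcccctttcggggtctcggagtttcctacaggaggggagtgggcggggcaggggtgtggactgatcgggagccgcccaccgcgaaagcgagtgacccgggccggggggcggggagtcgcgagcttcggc
The CRE of Areg lay at positions -61 to -54, counted back from the start. The decamers of Cdkn1a lay at -73 to -64 and -51 to -42. Of 32851 promoters in the table, 1.55% held the CRE, 6.75% the AP-1 site and 7.13% the p53 decamer. A match describes the letters and not a bound site.

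Among the members, Areg ran from 2 to 122 UMIs in replicate 1, with a median of 7, and from 2 to 83 in replicate 2, with a median of 5. Cdkn1a ran from 5 to 133 UMIs with a median of 11.5 in replicate 1, and from 5 to 37 with a median of 9 in replicate 2. At the edge of the rule, 22 members had exactly 2 UMIs of Areg and 27 exactly 5 of Cdkn1a, while 32 cells just outside had 1 UMI of Areg, 34 had 4 of Cdkn1a and 47 had 2 of Mki67. A further group of 518 cells, the 47 included, passed on Areg and Cdkn1a but had 2 or more UMIs of Mki67. Levels of summed cells are given in CPM, the UMIs of a gene in the summed cells of a class in a library, scaled to the same total in every sum. In these units Areg was at 313 and 361 in members of replicate 1 and 2. Cdkn1a was at 376 and 358, against 73.7 and 50.2 in comparison cells, and Mki67 at 10.6 and 12.3, against 20.1 and 37.7.

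Members made up 2.26% of the cells in replicate 1 (exact 95% interval 1.85 to 2.72) and 2.08% in replicate 2 (1.67 to 2.55). These intervals cover counting error only. Since the rule counts raw UMIs, depth entered it: in replicate 2 the share went from 0.219% of cells with 5000 to 10000 UMIs to 5.47% of those with 30000 to 40000, while in replicate 1 it lay between 1.10% and 2.76% in every range of depth. Members had a median of 34348 and 27166 UMIs, and comparison cells of 23137 and 10545. The median mitochondrial share was 2.23% and 3.95% in members, and 2.43% and 6.67% in comparison cells. With every cell thinned to 5000 UMIs and the rule set to at least 1 UMI of Areg and of Cdkn1a and none of Mki67, the share was 3.45% and 3.13%. The plot of both genes by cell shows members above the comparison cells along the Cdkn1a axis, and the ranges overlap: Cdkn1a in comparison cells reached 50 and 15 UMIs.

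**Figure D1:**
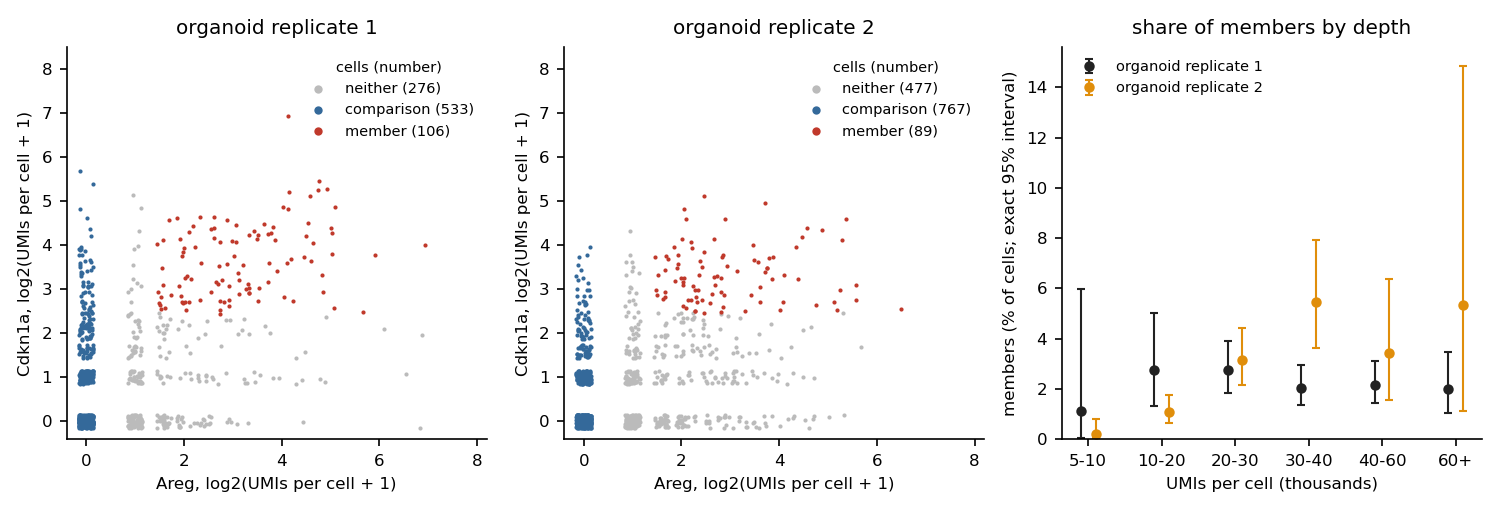
Left and middle, Areg against Cdkn1a as log2(UMIs per cell + 1) in organoid replicates 1 and 2 for cells with at most 1 UMI of Mki67, with points shifted slightly at random; red marks members (106 and 89), blue comparison cells (533 and 767) and grey the others. Right, the share of members among all cells of a depth range with exact 95% binomial intervals, which goes from 0.219% in the shallowest cells to 5.47% at 30000 to 40000 UMIs in replicate 2 and stays between 1.10% and 2.76% in replicate 1.

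The organoid libraries held 191255856 and 128355905 UMIs, and the 6 epithelial libraries between 99133978 and 191255856. No member shared its barcode with a member of the other library, and 1 shared it with another cell that passed the depth limits. The doublet caller Scrublet marked 0 of 4872 and 1 of 8034 cells and so did not work, and no doublets were removed. Leaving out the highest 6% of its scores removed no member, but these scores cannot tell whether members were doublets. All 9 epithelial markers were present in members, summing to 11991 and 10209 CPM. Of 9 immune markers 7 and 5 were at 0, and the rest summed to 1.23 and 4.23 CPM; Ptprc, the CD45 gene of blood cells, had no UMI in any member. Of 9 fibroblast markers 7 and 6 were at 0, and the sum was 0.74 and 1.15 CPM. For genes in members and comparison cells, UMIs were summed per library and compared with edgeR's quasi-likelihood test with the library as a block, and a gene was called at a Benjamini-Hochberg adjusted p under 0.05 over all genes tested. Log2 fold changes are given ± SE and after TMM, edgeR's scaling between the sums. CPM are not scaled in this way, so a fold change can differ from the ratio of the CPM. Of 12944 genes tested, 2077 were called higher in members (16%) and 1625 lower (12.6%), together 28.6% of the genes. Without the library as a block 346 were called, and with each member matched to a comparison cell of its library of about the same depth 2064 were.

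Among 5 other EGF family ligands with enough UMIs to test, 4 were called higher in the same cells. Ereg, which encodes epiregulin and lies beside Areg on chromosome 5, was at 13.3 and 28.1 CPM in members of replicate 1 and 2, and at 0.948 and 3.11 in comparison cells. Both member values lay above both comparison values, with a log2 fold change of 3.66 ± 0.29 (adjusted p = 3.23e-07), on 54 and 73 UMIs against 12 and 30. Btc, betacellulin, was at 24.4 and 28.1 against 4.74 and 8.5 CPM (2.30 ± 0.26, adjusted p = 1.05e-05). Hbegf, the heparin-binding ligand that keratinocytes release at wounds, was at 90.5 and 107 against 41.5 and 57.8 (1.25 ± 0.13, adjusted p = 4.49e-06). Tgfa was called at 0.94 ± 0.21 (adjusted p = 0.00318), but its values of 19.7 and 19.99 against 8.05 and 18.96 show the difference in replicate 1 alone. Nrg4 was not called (log2 fold change -0.37). These counts stand beside 16% of all genes called higher.

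Genes of the receptor system and of its downstream MAPK cascade followed in part. Of 8 tested receptor and feedback genes 3 were higher and 1 lower. Egfr, the receptor itself, was higher by 0.66 ± 0.18 on the log2 scale. Errfi1, an inhibitor that binds active EGF receptors, was higher by 1.06 ± 0.15. Lrig1, a membrane protein that restrains the receptors and marks stem cells, was lower, at 41.7 and 70.4 against 131 and 271 CPM (-1.56 ± 0.13). Among 13 MAPK response genes 10 were higher and 1, Spred1, was lower. Fosl1, an AP-1 subunit, rose most in that list (2.62 ± 0.22), and Dusp6, a phosphatase that acts on ERK, was at 22.2 and 25.8 against 6.24 and 9.63 CPM (1.87 ± 0.18). Of 15 immediate early genes 11 were higher, with Klf6 (1.87 ± 0.14), Atf3 (1.49 ± 0.15) and Klf4 (1.34 ± 0.15) ahead of Egr1 (0.76 ± 0.11) and Fos (0.60 ± 0.13).

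Targets of p53 were higher nearly throughout. Leaving out Cdkn1a, which is itself such a target and chose the cells, 23 of 27 were called higher and none lower, with a median log2 fold change of 1.45 against 0.01 over all genes. Gdf15, a secreted stress hormone, was at 136 and 77.7 CPM in members and at 16.5 and 14.6 in comparison cells (3.02 ± 0.23, adjusted p = 2.18e-07). Ccng1, cyclin G1, was at 192 and 233 against 54.5 and 64.6 (2.08 ± 0.12). Phlda3, a repressor of Akt, was at 140 and 116 against 40.5 and 35.8 (1.98 ± 0.11). Mdm2, the ligase that degrades p53, was at 57.2 and 97.3 against 23.8 and 40.1 (1.52 ± 0.14). For each of these the member and comparison libraries did not overlap. The targets that were not called were Sesn1 (-0.50 ± 0.19, adjusted p = 0.0587), Ddb2 (-0.25 ± 0.19), Xpc (-0.03 ± 0.18) and Fas (1.01 ± 0.47, adjusted p = 0.121). Of the 25 promoters of the 18 targets in the RefSeq table, 28% held a p53 decamer. These included promoters of Ccng1 and Mdm2 but also of Sesn1, and none was found in those of Gdf15 and Phlda3.

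Genes of the cell cycle were lower in members, although both classes were limited to 1 UMI of Mki67. Of 18 G1/S genes 17 were lower (median -0.89), and of 16 G2/M genes 12 (median -0.94). These counts depended on the fit: over 6 libraries, where 11.6% of all genes were lower, 17 and 5 were called, with medians of -0.97 and -1.01. Without 1 organoid replicate that fit holds a single organoid library, so only medians are given. They were -1.07 and -1.04 without replicate 1, and -0.91 and -1.02 without replicate 2. With the rule on counts thinned to 5000 UMIs, 18 G1/S and 8 G2/M genes were lower, with smaller medians of -0.54 and -0.32. Pcna, the sliding clamp of DNA replication, was at 88.3 and 89.6 against 147 and 171 CPM (-0.59 ± 0.12). Top2a, a topoisomerase of dividing cells, was at 39.0 and 68.8 against 93.8 and 172 (-1.05 ± 0.17). Cdk1 was not called (-0.41 ± 0.18, adjusted p = 0.105). Mki67 itself was lower in members within its limit, as given above, and its part in these counts was not tested. Of 12 further CDK inhibitors and cyclins 5 were higher and 1 lower. Cdkn2b, which encodes the inhibitor p15, was at 46.1 and 21.1 against 9.08 and 5.91 CPM (2.39 ± 0.18), and Cdkn2a, of the same locus, at 16.5 and 5.77 against 5.45 and 2.28 (1.73 ± 0.26). Ccnd1 and Ccnd2, the D cyclins that drive cells through G1, were also higher (1.59 ± 0.12 and 1.10 ± 0.13), while Cdkn1b, the inhibitor p27, was not called.

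The genes furthest apart between the classes, ranked by fold change among called genes whose log2 CPM averaged 5 or more, are given next, the 12 highest first. Il1rn, the interleukin-1 receptor antagonist, was at 124 and 183 CPM in members and at 15.2 and 30.9 in comparison cells (3.05 ± 0.16, adjusted p = 1.34e-08). After Gdf15 came F3, tissue factor, which starts blood clotting, at 114 and 117 against 20.9 and 26.3 (2.55 ± 0.18). S100a14 was at 646 and 468 against 124 and 119 (2.43 ± 0.12). Krt4, a keratin of stratified epithelia, was at 188 and 233 against 39.6 and 53.4 (2.43 ± 0.12). Clu, the secreted chaperone clusterin, was at 117 and 68.0 against 18.1 and 26.6 (2.36 ± 0.21). The chemokine Cxcl16 (2.32 ± 0.12), Crip2 (2.20 ± 0.12), the vasoconstrictor peptide gene Edn1 (2.20 ± 0.14), Anxa1 (2.18 ± 0.13), the stress-induced Nupr1 (2.16 ± 0.15) and tropomyosin Tpm2 (2.09 ± 0.12) were the other genes of the 12. In the plot of the named genes no member value of any of these 12 overlapped a comparison value.

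**Figure D2:**
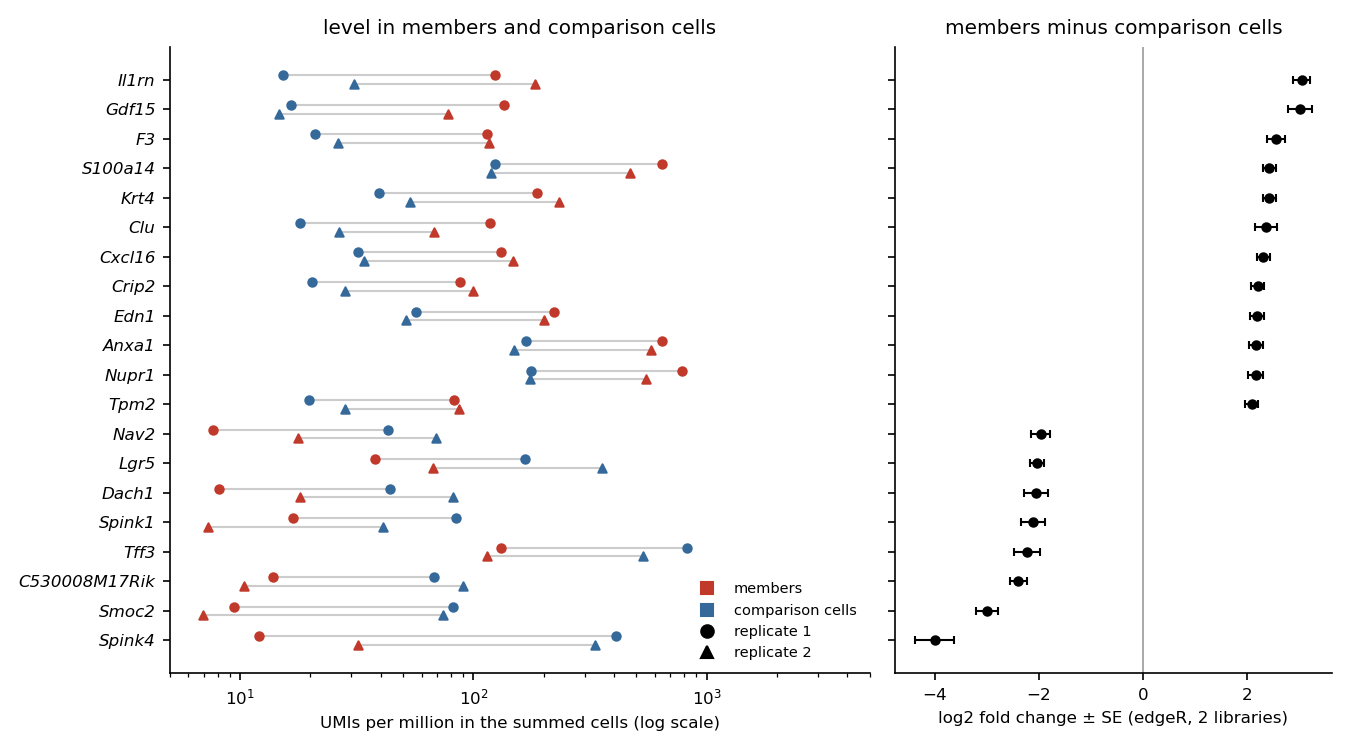
Left, CPM (log scale) of the 12 highest and 8 lowest named genes in the summed members (red) and comparison cells (blue) of organoid replicate 1 (circles) and 2 (triangles). Right, log2 fold change ± SE from edgeR over the 2 libraries, from 3.05 for Il1rn to -4.00 for Spink4; grey lines join the classes of a library.

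Clu and Anxa1 also belong to the genes that mark fetal-like, regenerating epithelium, and that list moved with the members: 13 of 14 genes were higher and none lower, with a median of 1.99 (1.38 with depth-matched cells and 1.04 with the rule on thinned counts). Ly6a, which encodes the surface protein Sca-1, was at 2101 and 1986 against 1032 and 996 CPM (1.26 ± 0.13). Anxa1, annexin A1, was at 646 and 576 against 169 and 150. Sprr1a, a small proline-rich protein of stressed epithelia, was at 63.9 and 128 against 0.474 and 6.53 (5.16 ± 0.58), and Mal, a lipid raft protein, at 37.5 and 21.9 against 3.55 and 3.21 (3.38 ± 0.20). Spp1 was not called (0.73 ± 0.38). Among wound edge and adhesion genes 12 of 14 were higher. Plaur, the urokinase receptor, was at 51.6 and 52.7 against 13.5 and 17.9 (1.99 ± 0.15). With no library block fewer were called: of the lists above, 10 of 14 fetal-like genes, 10 of 27 p53 targets, 3 of 5 EGF ligands, 4 of 14 wound edge genes and 3 of 15 immediate early genes were higher, and 2 of 18 G1/S and none of 16 G2/M genes lower. Of the lists that follow, 1 of 17 stem and Wnt genes, 5 of 10 goblet and none of 5 enteroendocrine genes were then lower, and 2 of 15 colonocyte genes higher.

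On the low side stood genes of the crypt base and of secretory cells. Lgr5, the R-spondin receptor that marks crypt base stem cells, was at 38.0 and 66.9 CPM in members and at 166 and 356 in comparison cells (-2.03 ± 0.13, adjusted p = 5.31e-08). Smoc2, a matricellular protein of the same cells, was at 9.37 and 6.92 against 81.6 and 74.1 (-2.99 ± 0.21). Of 17 stem and Wnt target genes 10 were lower and 2 higher. In the fit over 6 libraries 11 of 18 were lower, with a median of -0.73. The median was -0.75 without organoid replicate 1 in that fit and -0.68 without replicate 2. Ascl2, a transcription factor of the stem cell, was lower (-0.93 ± 0.17), whereas Axin2, the usual reporter of Wnt signalling, was at 53.5 and 93.8 against 73.3 and 98.0 (-0.01 ± 0.15, adjusted p = 0.984). The 2 higher genes were Cd44, a hyaluronan receptor, at 87.6 and 168 against 45.2 and 106 (1.05 ± 0.12), and Sox9 (0.51 ± 0.13). Dach1 (-2.05 ± 0.23), Nav2 (-1.96 ± 0.19), the trypsin inhibitor Spink1 (-2.12 ± 0.23) and the transcript C530008M17Rik (-2.39 ± 0.16) were among the 8 lowest.

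Of 10 tested goblet cell genes 9 were lower, and the classes also held different shares of secretory cells. Spink4, a peptide of goblet cells, was at 12.1 and 31.9 against 409 and 331 CPM (-4.00 ± 0.38, adjusted p = 2.35e-06). Tff3, trefoil factor 3, was at 131 and 115 against 821 and 535 (-2.22 ± 0.25). Cells with at least 3 UMIs over the goblet and enteroendocrine lists, without the widely found Tff3, Agr2 and Galnt12, numbered 7 and 3 among the members but 93 and 94 among the comparison cells. With such cells left out, a setting chosen after the values were seen, 3 of 8 goblet genes, on which the removal itself rests, were lower, while 22 of 27 p53 targets and 13 of 14 fetal-like genes were higher. Of 5 enteroendocrine genes 4 were lower, but only 1 with depth-matched cells or without the deepest 10% of cells, and none with the rule on thinned counts or, of 11, in the fit over 6 libraries. Chga had no UMI in the members of either library. None of the 3 tested tuft cell genes was called.

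The lists were also summed in single cells. The 14 fetal-like genes together took a median of 13187 CPM per cell in members of replicate 1, with quartiles of 7239 and 22571, and of 17418 (11004 to 26188) in replicate 2. Comparison cells had medians of 4446 and 4066. Of the members, 96 of 106 and 89 of 89 lay above the comparison median of their library. For the p53 targets, again without Cdkn1a, 87 of 106 and 83 of 89 lay above it, and for the stem and Wnt list 26 of 106 and 8 of 89. With each cell thinned to 5000 UMIs, Il1rn was seen in 44.3% and 52.8% of members and in 5.07% and 11.5% of comparison cells (84.0% and 91.0% against 22.9% and 21.5% unthinned). Lgr5 was seen in 11.3% and 17.98% of thinned members against 43.5% and 63.4%. Ptprc, which epithelium lacks, had a UMI in none of 106 and 89 thinned members (exact upper limits of 3.42% and 4.06% for cells with a UMI, which do not limit the cells that express it).

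**Figure D3:**
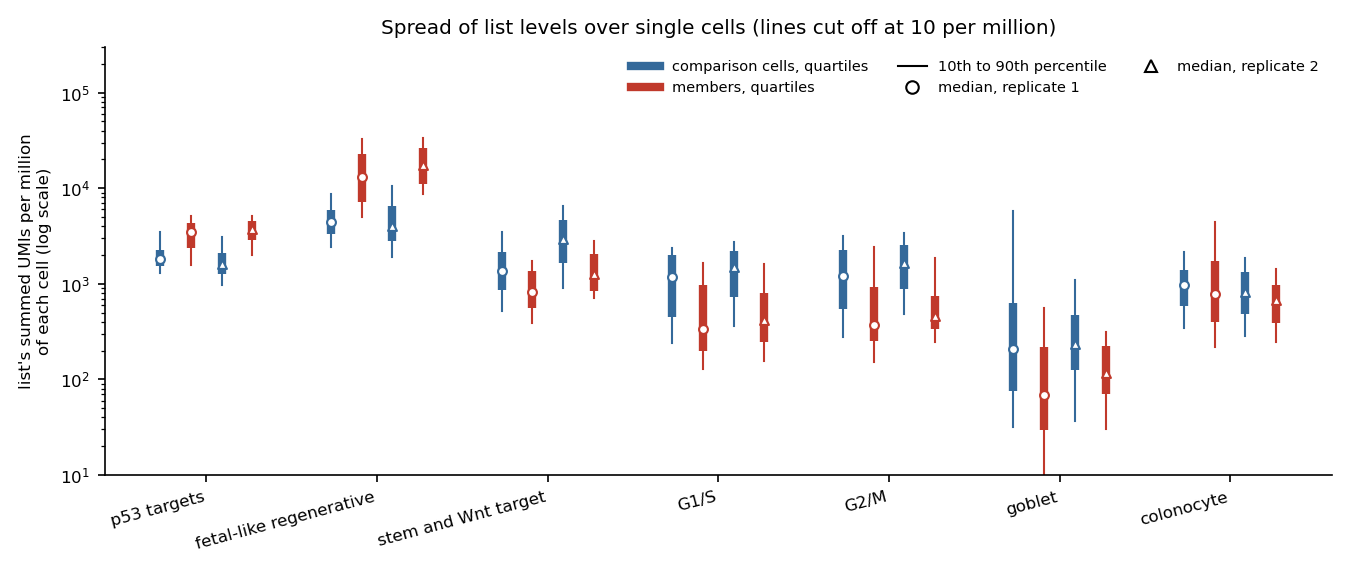
Summed CPM of 7 gene lists in single cells (log scale) for comparison cells (blue) and members (red) of organoid replicate 1 (circle) and 2 (triangle). Bars span the quartiles, lines the 10th to 90th percentile and symbols mark medians; the fetal-like medians of 13187 and 17418 in members stand above 4446 and 4066 in comparison cells, while the colonocyte medians are lower in members.

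Genes of absorptive colonocytes gave a divided picture. In the summed cells 11 of 15 were higher and 2, Aqp4 and Guca2b, lower. In the fit over 6 libraries 11 of 16 were higher, with a median of 1.54. The median was 1.22 without organoid replicate 1 in that fit and 1.12 without replicate 2. Car1, a carbonic anhydrase, was at 460 and 123 CPM against 108 and 48.7 (2.02 ± 0.19), and Krt20, the keratin of the crypt surface, at 13.6 and 5.0 against 1.97 and 2.18 (2.32 ± 0.65). Aqp8 was called on 102 UMIs in members of replicate 1 and 1 UMI in replicate 2, so that it rests on a single library. In single cells the list's median was lower in members, 789 and 672 CPM against 965 and 823. Of the members, 45 of 106 and 34 of 89 lay above the comparison median. These CPM lack the TMM scaling of the fold changes, and its part in the lower medians was not tested. In replicate 1 the 90th percentile was 4471 CPM in members and 2161 in comparison cells. Among general epithelial genes, the keratins Krt19 (1.92 ± 0.14), Krt8 (1.5 ± 0.13) and Krt18 were higher, and Epcam was at 1137 and 684 against 1662 and 1049 without being called (adjusted p = 0.0554).

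Because the rule joins both genes, the comparison cells were divided by Cdkn1a to see what went with each. Among Areg-zero cells 57 in replicate 1 and 24 in replicate 2 had 5 or more UMIs of Cdkn1a, and their summed Cdkn1a, 376 and 306 CPM, was close to that of the members. Members against these cells, at like Cdkn1a, gave 241 genes higher (2.08% of 11599) and 279 lower (2.41%), together 4.48%. These Areg-zero cells against those with fewer than 5 UMIs of Cdkn1a gave 311 higher (2.68%) and 205 lower (1.77%), together 4.45%. Both comparisons share the 57 and 24 cells, with opposite sign, so their values are set side by side, and the difference between them was not tested. Without the library block they gave 7 and 4 genes, and with DESeq2 287 and 342, where 72.8% of the second count were higher beside 60.3% with edgeR. The Areg-zero cells with Cdkn1a had medians of 25834 and 21297 UMIs, below the members. Those with fewer than 5 UMIs of Cdkn1a had 22718 and 10157, so in replicate 2 the second comparison also set deeper against shallower cells. The median mitochondrial share was 2.94% and 4.35% with Cdkn1a, and 2.40% and 6.80% with fewer than 5 UMIs of it. Of the Areg-zero cells with Cdkn1a, 13 of 57 and 6 of 24 carried at least 3 UMIs of the secretory genes.

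Of the p53 targets, 20 of 27 were higher with Cdkn1a at Areg 0 and none lower, with a median of 1.19, whereas at like Cdkn1a 1 was higher and 1 lower, with a median of -0.07. With the rule on counts thinned to 5000 UMIs, where Cdkn1a of at least 1 takes the place of 5, 7 of 27 were also higher with Areg, with a median of 0.32. The remaining class, 131 and 235 cells with Areg of 2 or more and fewer than 5 UMIs of Cdkn1a, was not tested. Its p53 targets without Cdkn1a summed to 2444 and 2559 CPM, against 1897 and 1932 in Areg-zero cells with fewer than 5 UMIs of Cdkn1a. Cdkn1a itself was at 40.1 and 71.3 CPM in that class, against 30.3 and 33.6. Phlda3 was at 140 and 116 CPM in members and at 165 and 123 in Areg-zero cells with Cdkn1a, which was not called (-0.10 ± 0.17, adjusted p = 0.834). The latter stood against 22.6 and 30.2 in Areg-zero cells with fewer than 5 UMIs of Cdkn1a (2.56 ± 0.18, adjusted p = 9.35e-09). Mgmt, a DNA repair enzyme, was at 62.8 and 136 against 13.5 and 28.7 (2.30 ± 0.20), and Ephx1, an epoxide hydrolase, at 62.8 and 78.3 against 12.9 and 20.1 (2.22 ± 0.19). Ms4a10 (2.52 ± 0.26) and Ang4, an antimicrobial ribonuclease (2.31 ± 0.46), completed the 5 highest. Gdf15 was the target higher on both axes, by 2.20 ± 0.30 with Cdkn1a and by 1.17 ± 0.26 with Areg. Of 300 promoters of genes higher with Cdkn1a, 12% held the p53 decamer, beside 6.91% with Areg and 5.79% of the promoters of all genes tested.

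Of the cell cycle lists, 11 of 18 G1/S and 12 of 16 G2/M genes were lower with Cdkn1a at Areg 0, and none of either was called with Areg at like Cdkn1a. With the rule on thinned counts 7 of 18 G1/S genes were lower with Areg (median -0.33), and with Cdkn1a 11 of 18 (median -0.31, from -0.96) and 9 of 16 G2/M genes (-0.39, from -1.17). Ccnb1, cyclin B1, was at 14.4 and 15.3 against 40.01 and 49.0 CPM (-1.52 ± 0.27), and the centromere histone Cenpa (-1.45 ± 0.25), Mms22l (-1.45 ± 0.26) and Smoc2 (-1.40 ± 0.27) were among the 5 lowest. The lowest was Chgb, chromogranin B of enteroendocrine cells, with 3 UMIs against 1793, a ratio of 64.7 (22.1 to 314, counting error only), where 1650 of the UMIs came from replicate 2. Chgb does not stand for its list: of 4 tested enteroendocrine genes 1 was higher with Cdkn1a and 1 lower. In replicate 1 the list summed to 155 CPM with Cdkn1a and to 35.9 with fewer than 5 UMIs of it. In replicate 2 these sums went the other way, at 51.1 and 260 CPM. With Cdkn1a set at 10 or more, where fewer cells were left, no G1/S gene and 2 G2/M genes were called.

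In the EGF family, at like Cdkn1a, Ereg was at 13.3 and 28.1 CPM in members against 1.26 and 6.81 (2.75 ± 0.51, adjusted p = 0.00233), on 2 and 4 UMIs in the Areg-zero cells. Btc was at 24.4 and 28.1 against 7.54 and 6.81 (1.81 ± 0.40) and Hbegf at 90.5 and 107 against 49.0 and 78.3 (0.78 ± 0.19). Thus 3 of 4 tested ligands were higher with Areg and none with Cdkn1a at Areg 0. With the rule on thinned counts these were 4 and 2 of 4, and with the stricter rule of Areg at 3 or more and Cdkn1a at 10 or more 1 and 0. Sprr1a was at 63.9 and 128 against 0 and 37.5 (3.14 ± 0.77), Tm4sf1 at 103 and 42.3 against 25.8 and 8.51 (2.01 ± 0.40), F3 at 114 and 117 against 33.9 and 27.2 (1.89 ± 0.25), the glutathione transferase Gsta1 at 99.9 and 68.0 against 31.4 and 17.0 (1.83 ± 0.23) and Cxcl16 at 132 and 148 against 55.3 and 39.2 (1.56 ± 0.18). Of 246 promoters of genes higher with Areg, 11.4% held the AP-1 site, those of F3 and Il1rn shown above among them, beside 8% with Cdkn1a, where Il1rn was also higher, and 4.52% of those of all genes tested. The CRE was in 2.03% of them, beside 2.56% of all tested.

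Of the fetal-like list 10 of 14 genes were higher with Areg and 10 with Cdkn1a. With depth-matched cells these were 7 and 5, and with cells of 20000 to 60000 UMIs 9 and 5. Anxa1 was higher by 1.31 ± 0.16 with Areg and by 0.91 ± 0.16 with Cdkn1a, and Il1rn by 1.53 ± 0.21 and 1.71 ± 0.23. Clu was called with Cdkn1a (1.69 ± 0.29) and not with Areg (0.84 ± 0.26, adjusted p = 0.0771), where its values of 117 and 68.0 against 49.0 and 69.8 overlapped, and with depth-matched cells the fold change was -0.39. Wound edge and adhesion genes had 6 of 14 higher with Areg and 1 with Cdkn1a, but 10 and 6 of 13 with the rule on thinned counts. Genes of the ATF4 and endoplasmic reticulum stress response had 8 of 14 higher with Areg, while with Cdkn1a 2 were higher and 3 lower. With Areg, 5 were higher with DESeq2, 5 at up to 5% mitochondrial UMIs and 4 with the stricter rule. Trib3, a target of ATF4, was at 14.3 and 11.1 CPM in members and at 0 and 1.70 in Areg-zero cells with Cdkn1a, on 58 and 29 UMIs against 0 and 1. Asns, asparagine synthetase, was at 91.5 and 102 against 44.6 and 49.4 there, but at 109 and 101 in Areg-zero cells with fewer than 5 UMIs of Cdkn1a. For Asns, members against all comparison cells were not called (0.20 ± 0.13, adjusted p = 0.276).

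Goblet genes were lower with Areg in 7 of 9 tested, Tff3 at 131 and 115 against 928 and 1042 CPM (-2.93 ± 0.20) and Spink4 at 12.1 and 31.9 against 352 and 177 (-3.57 ± 0.35). With Areg at 3 or more and Cdkn1a at 10 or more UMIs, the fold change of Spink4 turned to 0.49 and was not called, 1 of 9 goblet genes was lower and the median of the list went from -2.51 to -0.08. Under that rule 5 of 9 were lower with Cdkn1a at Areg 0 (median -2.52), where otherwise 1 was higher and 1 lower (-0.26). Both results rest on the 24 and 5 Areg-zero cells with Cdkn1a that the stricter rule left in replicate 1 and 2. With secretory cells left out of every class, 6 goblet genes could be tested and none was called, but those cells were removed by UMIs of the same list, which fixes part of that loss. The same setting left 222 genes called with Areg in place of 520, and had 2 of 4 EGF ligands, 7 of 14 fetal-like and 2 of 13 wound edge genes higher. Of called genes whose log2 CPM averaged 5 or more, alike in both libraries, the potassium channel genes Kcnb2 and Kcnma1 were furthest apart. Kcnb2 had 4 UMIs in members against 223 in far fewer Areg-zero cells, a ratio of 170 (65.6 to 630, counting error only), and Kcnma1 was at 3.45 and 5.0 against 59.1 and 81.7 (-3.97 ± 0.27). Ang4 was at 31.3 and 4.23 against 83.6 and 226 (-2.94 ± 0.52). Lgr5 was lower on both axes, with log2 fold changes of -1.33 ± 0.25 with Areg and -0.83 ± 0.22 with Cdkn1a. Of 16 stem and Wnt target genes tested, 6 were lower with Areg (median -0.57) and 3 with Cdkn1a (median -0.10).

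**Figure D4:**
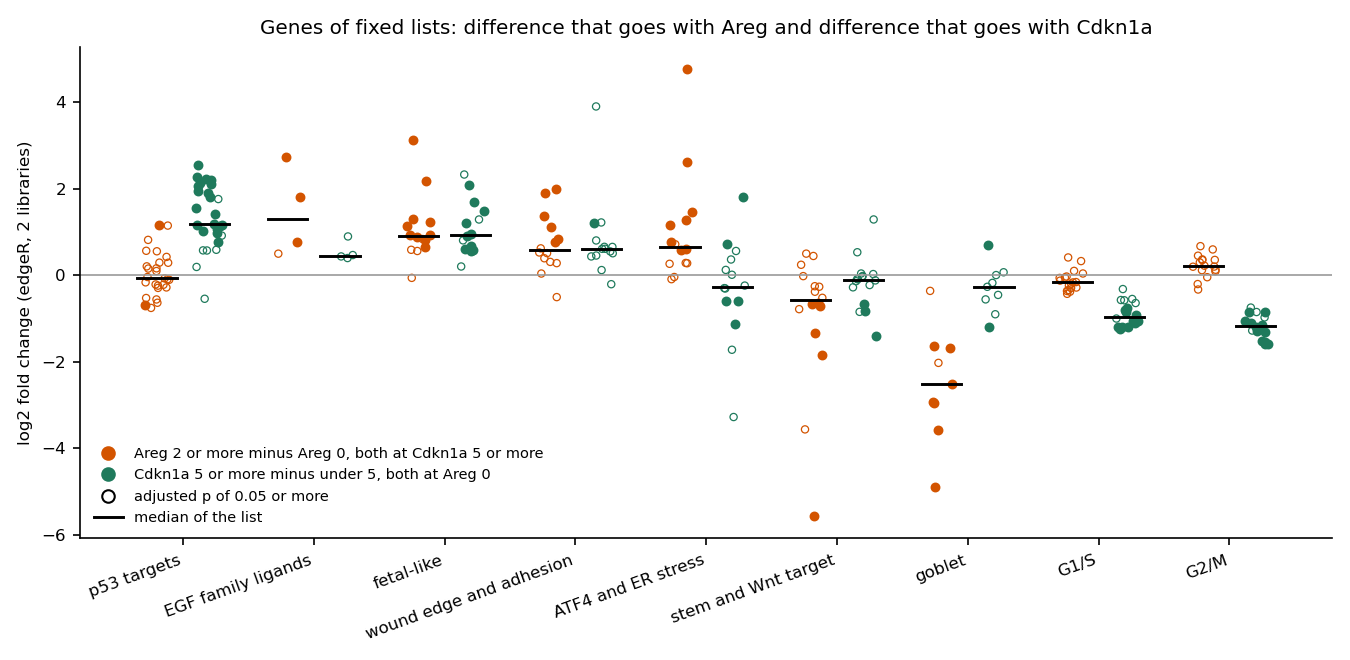
Log2 fold change (edgeR, 2 organoid libraries) of the tested genes of 9 lists, in orange for Areg of 2 or more minus 0 at Cdkn1a of 5 or more, and in green for Cdkn1a of 5 or more minus fewer at Areg 0. Filled points had an adjusted p under 0.05 and bars mark medians; the p53 targets have a median of -0.07 in orange and 1.19 in green, and the EGF ligands of 1.30 and 0.45.

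The same rule selected cells in the other epithelial libraries. It took 1882 and 1545 cells in assembloids (18.8% and 28.5%) and 196 and 211 in tissue (8.78% and 11.05%). Of all cells used, both organoid shares thus lay below both shares of each other group. The rule leaves out cells with 2 or more UMIs of Mki67. These made up 80.5% and 68.9% of cells in organoids, 24.6% and 24.8% in assembloids and 19.1% and 14.03% in tissue. Shares among cells with at most 1 UMI of Mki67 were not compared, so this order need not hold there. Thinned to 5000 UMIs, the shares of all cells were 38.7% and 38.5% in assembloids and 9.68% and 15.4% in tissue, beside 3.45% and 3.13%. With 2 libraries a group, an exact permutation test cannot reach 0.05. Areg in the selected cells was at 814 and 775 CPM in assembloids and 243 and 413 in tissue. Selected cells of assembloids had medians of 13356 and 21537 UMIs, against 34348 and 27166 in organoids. Areg-zero cells had 8896 and 10112, against 23137 and 10545. Over all cells used, Cdkn1a was at 319 and 314 CPM in assembloids and at 68.8 and 68.1 in organoids. A fixed count of UMIs therefore need not pick like cells in both cultures. In 1 fit over the 6 libraries, with the same classes in each, 1707 of 16205 genes (10.5%) differed between organoids and assembloids in their difference between selected and Areg-zero cells, 724 upward (4.47%) and 983 downward (6.07%). Without the library block 80 did, and no depth-matched or thinned form of this fit was run. The median over all genes was -0.09, and 0.06 with DESeq2, which put 62.9% of its calls upward against 42.4% here.

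The p53 targets set the organoid cells apart from the assembloid cells: 18 of 27 had a larger difference in organoids and none a smaller one, with a median of 0.76. Within assembloids 14 were higher and 4 lower, beside 19% and 18.3% of all genes, and in tissue 7 and 8, beside 20.9% and 20.5%. Ccng1 was at 192 and 233 against 54.5 and 64.6 CPM in organoids, at 48.8 and 52.7 against 36.7 and 44.5 in assembloids and at 32.4 and 32.5 against 34.9 and 32.4 in tissue, and the organoid difference exceeded that of assembloids by 1.42 ± 0.14 (adjusted p = 4.73e-05). Phlda3, at 12.4 and 14.1 against 8.78 and 8.94 in assembloids, was 1.11 ± 0.26 apart. The fetal-like genes had 10 of 14 with a larger difference in organoids and none with a smaller one. Within assembloids 9 of 14 were higher and 1 lower (median 0.77), and in tissue 10 and 2 (median 1.11). Clu, at 6.38 and 5.97 against 4.88 and 3.91 in assembloids, was 1.58 ± 0.39 apart. Without organoid replicate 1 or 2 this fit holds a single organoid library. Its calls then measure no spread between organoids and are not given.

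EGF ligands, by contrast, mostly did not pass the test of the difference. Ereg was also higher in selected cells of assembloids, at 43.5 and 44.0 against 13.3 and 12.1 CPM. In tissue it was at 1.22 and 2.75 against 0.684 and 0.306, values that rest on few UMIs. Its organoid difference was larger than that of assembloids by 1.54 ± 0.40 (adjusted p = 0.0219). For Btc, at 26.6 and 32.6 against 8.68 and 13.97 in assembloids, the difference was 0.54 ± 0.38 (adjusted p = 0.428). Immediate early genes went the other way, with 6 of 15 smaller in organoids: Fos was at 314 and 398 against 139 and 208 in assembloids, and the difference of organoids minus assembloids was -0.80 ± 0.13 (adjusted p = 0.0017). Goblet genes had 8 of 11 with a lower difference in organoids than in assembloids. Spink4, at 877 and 1634 against 1194 and 2523, was not called in assembloids (-0.27, adjusted p = 0.455). In tissue 11 of 11 goblet genes were lower in the selected cells (median -2.31, and -2.64 in organoids), beside 20.5% of all genes. Of 16 colonocyte genes 15 were higher and 1 lower in tissue, beside 20.9% of all genes higher. In assembloids 13 of 16 were higher and none lower, beside 19%.

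**Figure D5:**
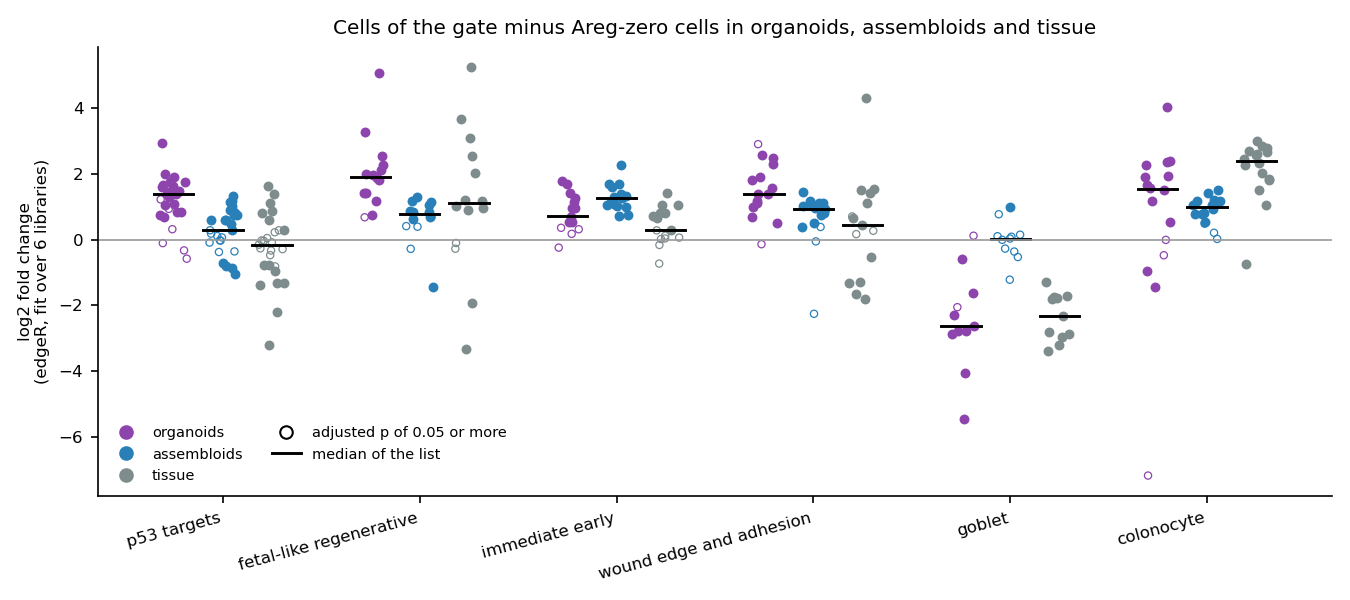
Log2 fold change of genes of 6 lists between cells of the rule and Areg-zero cells within organoids (purple), assembloids (blue) and tissue (grey), from 1 edgeR fit over 6 libraries. Filled points had an adjusted p under 0.05 and bars mark medians; the p53 median is 1.38 in organoids, 0.29 in assembloids and -0.15 in tissue.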

How the data were processed

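Single-cell RNA-seq of mouse colon epithelium and stroma was measured in 8 libraries, of which the 6 epithelial ones were used here. The deposited values are raw UMI counts per gene and barcode, which the authors made with Cell Ranger on mm10. The submitters' processing notes name version 6, while the headers of the 6 epithelial matrices name 7.1.0, a version that counts reads in introns by default. Whether introns were counted is not given in the sources used here, and counts of long genes depend on it. Samples were grouped by GEO's labels. The members and the gene lists were chosen with earlier results of these data known.

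UMIs of all cells of a class were summed per library, which gave 8 profiles per organoid fit, 4 classes in each library. The first fit held members, comparison cells, the other cells with at most 1 UMI of Mki67, and cells with 2 or more. The second held the classes of Areg by Cdkn1a. All classes of a fit shared a single estimate of the spread, so the p-values do not rest on the compared classes alone. Genes were filtered with filterByExpr, scaled with TMM and tested with edgeR 4.0.16 (quasi-likelihood, R 4.3.3, two-sided) with the library as a block and Benjamini-Hochberg adjustment. Classes of a library are cells of the same culture, so they are paired by construction. Deviations from the class means correlated between members and comparison cells of a library at 0.817 over 4451 genes, and between the other classes compared at 0.651 and 0.685. DESeq2 1.42.0 and the other settings named at the end were alternatives. On simulated counts for members against comparison cells, 12312 genes were tested. Of these, edgeR recovered 66% of genes changed 2-fold and 90% of those changed 4-fold, with 7 false calls. The simulated counts had no shift between libraries and a single dispersion of 0.00703 for all genes. Only genes above a set minimum of UMIs were changed. These rates therefore need not hold for the real counts.

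In assembloid and tissue libraries only cells whose UMIs of epithelial genes exceeded those of fibroblast and immune genes entered. Named genes were called, moved alike in both libraries and had a mean log2 CPM of at least 5: the 12 highest and 8 lowest for members, 5 and 5 when Areg and Cdkn1a were separated and 3 and 3 between cultures, leaving out mitochondrial and ribosomal protein genes. From each list, examples of large change and members not called were also named. Symbols that name more than 1 feature, such as Ddit3, were not tested. Depth was 99133978 to 191255856 UMIs per library, and summed classes with few cells give few UMIs for low genes. Results for some items are not reported here.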

Additional observations from a re-analysis of the deposited data

Results flagged for a closer look

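For 1707 genes the difference between members and Areg-zero cells differed between organoids and assembloids by the test of that difference (edgeR, adjusted p under 0.05). The 3 highest and 3 lowest named genes were each singled out by the same test. Il34, a ligand of the CSF1 receptor, was at 11.6 and 13.8 CPM in organoid members against 1.03 and 4.97, but at 21.1 and 19.98 against 101 and 121 in assembloids, a difference of 4.58 ± 0.46 on the log2 scale. Gm36037, a predicted gene, was at 7.65 and 20.4 against 2.05 and 6.84 in organoids and at 66.4 and 42.0 against 408 and 369 in assembloids (4.46 ± 0.33). Sprr1a was at 63.9 and 128 against 0.474 and 6.53 in organoids and at 320 and 397 against 191 and 149 in assembloids (3.77 ± 0.78). Sval1 was at 1.73 and 1.15 against 45.96 and 18.96 in organoids, while in assembloids it was not called (-4.13 ± 0.96 for the difference). Spink4 differed by -3.80 ± 0.47. Fam13a was at 8.14 and 9.61 against 43.5 and 44.1 in organoids and at 89.7 and 150 against 54.3 and 97.2 in assembloids (-3.09 ± 0.28). The cultures differ in medium and in stroma, and these cannot be told apart here.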

How the results depend on the processing

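Without the replicate block the counts of called genes went from 3702 to 346 for members against comparison cells, from 520 to 7 with Areg, from 516 to 4 with Cdkn1a and from 1707 to 80 between cultures. Depth-matched cells gave 2064 and 266 for the first and second of these. DESeq2 gave 287 with Areg and 342 with Cdkn1a, and the stricter gate (Areg 3, Cdkn1a 10) 226 and 169. Leaving out secretory cells, chosen after the data were seen, gave 222 with Areg. Leaving out the tissue libraries gave 1057 between cultures. Leaving out single libraries gave 1386 to 2091 for members in the fit over 6 libraries, which called 3674 with all of them, the lower without organoid replicate 2 and the other without replicate 1, and 762 to 1835 between cultures (762 without organoid replicate 2 and 974 without replicate 1). The share of members was 3.45% in replicate 1 with thinned counts, and in replicate 2 it was 3.13% with thinned counts, 3.15% at up to 5% mitochondrial UMIs and 3.82% at 20000 to 60000 UMIs. Axin2, not called, turned from -0.01 to 0.022 without the replicate block, 0.012 without the filter and 0.12 with the stricter gate, and was between -0.38 and 0.10 without 1 organoid replicate. With Areg, Spink4 turned to 0.49 under the stricter gate, and Clu to -0.39 with depth-matched cells and -0.036 in replicate 2 alone. Over 61 named results, 672 of 737 values with a test kept direction and call, 57 lost the call (29 of them without the block), 2 gained it and 6 turned. Of 110 values in single libraries, which have no test, 55 lay within the standard deviation of the 2 libraries from the main value. Another 54 lay further from it and 1 turned. The 737 values with a test include fits without 1 organoid or assembloid library, whose tests rest on spread in the other groups. Why these counts moved was not tested. Depth limits genes of few UMIs, and 24 Areg-zero cells with Cdkn1a in replicate 2 limit both comparisons that use them.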

Other observations

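Gene groups not yet described were also counted in members against comparison cells, beside 16% of all genes called higher. Of 9 heat shock genes 3 were higher: Hspb1, a small heat shock protein, at 35.5 and 30.8 CPM against 7.34 and 6.53 (2.49 ± 0.17), Hspa1a at 20.97 and 9.23 against 1.5 and 2.38 (3.27 ± 0.35), and Hspa1b (1.62). The other 6 were not called. The list's sum was lower in members in CPM, at 3874 and 3548 against 4212 and 3711. With the TMM scaling of the tests, its median log2 fold change was 0.27. Of 12 hypoxia genes 9 were higher, among them Ndrg1 at 89.5 and 130 against 33.6 and 48.7 (1.66 ± 0.22) and Adm, the peptide adrenomedullin, at 11.3 and 10.4 against 2.68 and 4.66 (1.94 ± 0.35). Of 10 YAP target genes 5 were higher. Ankrd1 was at 14.3 and 13.8 against 0.711 and 2.38 (3.60 ± 0.45) and Ccn2 at 49.8 and 36.9 against 7.98 and 18.4 (2.07 ± 0.23), whereas Ccn1 was not called (-0.10, adjusted p = 0.815). Of 13 NF-kB target genes 6 were higher, including Ptgs2, the inducible cyclooxygenase (3.46), and the chemokine Ccl20 (2.41 ± 0.37).

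The genes called in each direction differed in genomic span, the distance from the start to the end of the gene. For members against comparison cells the median span was 18.5 kb for higher and 45.0 kb for lower genes, beside 23.2 kb over all genes tested. With Areg at like Cdkn1a it was 18.4 kb for higher and 93.2 kb for lower genes, beside 24.3 kb, and with Cdkn1a at Areg 0 it was 18.2 kb and 23.9 kb. Whether reads in introns were counted bears on the counts of long genes, and its part was not tested.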
